A study of Mus musculus with 23 samples.

Results

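The cell surface presentation of peptides by MHC class I was followed through 10 genes, measured by RNA sequencing of colonic epithelium from aged mice. They are the class I heavy chains H2-K1, H2-D1 and H2-Q10, the light chain B2m, the transporter subunits Tap1 and Tap2, the loading chaperone Tapbp, the immunoproteasome subunits Psmb8 and Psmb9, and the class I transactivator Nlrc5. They were taken by symbol, by a rule that holds no measured value but was set with earlier results of these data known, and are 10 of the 24917 gene loci counted. The 23 samples came from male C57BL/6 mice that entered the study at 6 weeks of age and were fed for 43 weeks. LF mice received a 10% fat diet, HF mice a 60% fat diet, and HFLF mice the 60% fat diet for 15 weeks followed by the 10% fat diet for 28 weeks. The methods name the substrain C57BL/6J. All 3 groups share strain, sex, starting age and time on the regimens. Batch 1, as the sample labels name it, holds 4 LF, 3 HF and 4 HFLF samples, and batch 2 holds 4 LF, 3 HF and 5 HFLF samples. The comparisons ask whether class I genes differ between obese and control mice, and whether they differ from either after the return to the lean diet.

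In class I presentation, cytosolic proteins are cut by the proteasome, and the transporter formed by Tap1 and Tap2 carries the peptides into the endoplasmic reticulum, where Tapbp, calreticulin and Pdia3 help to load them onto a heavy chain paired with B2m. Interferons raise the transcription of most of these genes through factors such as Irf1 and Nlrc5, and replace the constitutive catalytic subunits of the proteasome by Psmb8, Psmb9 and Psmb10. In the gut epithelium, class I molecules display peptides to CD8 T cells, many of which lie between the epithelial cells.

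Libraries of batch 1 held 29189922 to 46498521 gene counts and those of batch 2 held 31607019 to 65320947. Values per sample are CPM, counts scaled to a common library size within each batch, and 3 counts correspond to 0.0462 to 0.102 CPM. A gene was called where the adjusted p from edgeR, taken over all genes tested, was under 0.05 and the fold change was above 1.2, and "rose" and "fell" are used of such genes only. All 10 members passed the filter on low counts, which 14428, 14377 and 14385 genes passed in batch 1, batch 2 and both batches together. The epithelial markers were high, with Epcam at 1465 to 2216 CPM and Krt8 at 4766 to 7303 CPM in every sample. Cd4 (0 to 0.277 CPM) and Mzb1 (0 to 0.227 CPM), which mark helper T cells and plasma cells, were near 0. Other markers of the lymphocyte and plasma cell lists were not, with Ptprc at 7.91 to 19.4 CPM, Itgae at 3.83 to 9.36 CPM, Cd3g at 0.765 to 2.23 CPM and Igj at 0.390 to 5.69 CPM.

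Of the members, 8 lie in the MHC or beside it. In mm10, H2-K1 (chr17:33996012-34000333), Tapbp (chr17:33919478-33929290), Psmb9 (chr17:34182099-34187330), Tap1 (chr17:34187556-34197225), Psmb8 (chr17:34198195-34201454), Tap2 (chr17:34204479-34216321), H2-D1 (chr17:35263094-35267497) and H2-Q10 (chr17:35470089-35474563) stand on chromosome 17. B2m is at chr2:122147687-122153082 and Nlrc5 at chr8:94472763-94527272. Tap1 and Psmb9 are divergent neighbours with 225 bases between their starts. The 250 bases upstream of the start, from RefSeq on GRCm38.p6, are shown, each on the strand of its gene. They cover the heavy chains, of which only H2-Q10 was called in a diet comparison. B2m and Psmb8 follow, with exact matches to the interferon-type cores searched, and then Tap1, which shares its upstream region with Psmb9. Capitals mark matches to the motifs searched. The regions are chr17:34000334-34000583 (- strand), chr17:35262844-35263093 (+ strand), chr17:35469839-35470088 (+ strand), chr2:122147437-122147686 (+ strand), chr17:34197945-34198194 (+ strand) and chr17:34187306-34187555 (+ strand).
H2-K1: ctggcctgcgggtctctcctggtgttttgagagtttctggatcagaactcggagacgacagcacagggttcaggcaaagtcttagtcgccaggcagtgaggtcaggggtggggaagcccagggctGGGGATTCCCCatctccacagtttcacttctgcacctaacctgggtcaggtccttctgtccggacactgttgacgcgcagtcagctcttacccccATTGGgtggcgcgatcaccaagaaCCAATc
H2-D1: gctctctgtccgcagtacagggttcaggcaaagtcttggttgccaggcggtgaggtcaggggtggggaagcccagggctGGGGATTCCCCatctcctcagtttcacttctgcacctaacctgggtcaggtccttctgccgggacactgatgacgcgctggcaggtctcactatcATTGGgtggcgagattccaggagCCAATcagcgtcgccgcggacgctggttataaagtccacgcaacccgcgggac
H2-Q10: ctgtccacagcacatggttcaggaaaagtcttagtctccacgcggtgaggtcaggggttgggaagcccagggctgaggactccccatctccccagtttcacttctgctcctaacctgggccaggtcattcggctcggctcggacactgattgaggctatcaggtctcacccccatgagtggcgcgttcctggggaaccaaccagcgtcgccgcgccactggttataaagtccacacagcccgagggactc
B2m: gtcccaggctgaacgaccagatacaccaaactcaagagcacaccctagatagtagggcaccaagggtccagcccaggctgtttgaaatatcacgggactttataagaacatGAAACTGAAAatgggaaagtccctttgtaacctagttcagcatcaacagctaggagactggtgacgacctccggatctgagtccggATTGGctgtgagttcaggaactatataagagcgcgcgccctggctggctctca
Psmb8: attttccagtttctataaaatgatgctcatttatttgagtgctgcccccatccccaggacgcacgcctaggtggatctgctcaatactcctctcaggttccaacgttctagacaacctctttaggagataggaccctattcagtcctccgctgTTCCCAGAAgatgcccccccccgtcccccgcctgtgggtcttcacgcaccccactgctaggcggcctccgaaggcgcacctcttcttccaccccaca
Tap1: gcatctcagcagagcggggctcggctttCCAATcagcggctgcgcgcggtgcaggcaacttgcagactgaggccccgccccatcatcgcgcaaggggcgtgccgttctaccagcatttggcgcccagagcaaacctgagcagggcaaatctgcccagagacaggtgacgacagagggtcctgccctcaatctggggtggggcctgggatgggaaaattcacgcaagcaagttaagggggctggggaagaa

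Motifs were searched on both strands from 250 bases before to 50 after the start in the 8 members with a RefSeq entry used here, which leaves out Tap2 and Nlrc5. The kappa B site, a target of NF-kappa B factors, stands in capitals in H2-K1 with its first base at -125 and in H2-D1 at -171, and was found in 10 of 32851 windows of the same length (0.0304%). At the aligned place H2-Q10 carries GAGGACTCCCC, which differs from the H2-D1 site by G2A and T6C, counted from 1 at the site's 5′ end. Over the 250 bases upstream of the start, aligned end to end, H2-D1 and H2-Q10 matched at 79.9% of 259 columns. H2-D1 and H2-K1 matched at 60.6% of 297, and H2-K1 and H2-Q10 at 55.9% of 304. Columns with a gap counted as unmatched. The H2-K1 start lies nearer its kappa B site, so unpaired ends lower the shares with H2-K1, and these shares do not rank likeness. The interferon-stimulated response element core, a GAAA repeat with any bases in the 2 places between, was found in B2m, as GAAACTGAAA at -139, and in 3.44% of all windows. The GAS core TTCNNNGAA, the interferon-gamma-activated site, was found in Psmb8, as TTCCCAGAA at -97, and in 8.3% of all windows. CCAAT, the NF-Y box, was present in 6 of the 8 (all but H2-Q10 and Psmb8) and in 37.4% of all windows. TGACGT was found in 0 of the 8 and in 7.51% of all windows. The windows of Tap1 and Psmb9 share 275 of their 300 bases, and so count 1 CCAAT box under both names. Only exact matches were counted, so looser forms of these elements in other members were not searched. These matches describe the letters of the windows and no binding was measured.

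Per kilobase of exon, the members spanned from B2m to Nlrc5. The median over the 23 samples was 288 CPM per kilobase for B2m (range 203 to 406), 200.4 for H2-K1 (179 to 253), 70.2 for Tapbp (57.0 to 88.4), 66.1 for H2-D1 (52.0 to 94.8), 9.35 for Tap2 (7.68 to 11.2), 5.07 for Psmb8 (3.76 to 11.1), 4.28 for Tap1 (3.35 to 7.17), 2.77 for Psmb9 (1.88 to 4.14), 0.532 for H2-Q10 (0.220 to 1.24) and 0.244 for Nlrc5 (0.110 to 0.731). The ranges of neighbours in this order overlapped, except between H2-K1 and Tapbp, between H2-D1 and Tap2, and between Psmb9 and H2-Q10. Per kilobase, Tap2 thus stood above its partner Tap1, with ranges that did not overlap. In CPM their ranges overlapped, at 29.0 to 42.2 for Tap2 and 18.4 to 39.2 for Tap1. The exon lengths join the exons of all annotated transcripts and may differ from the lengths counted. The order per kilobase depends on them.

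**Figure D1:**
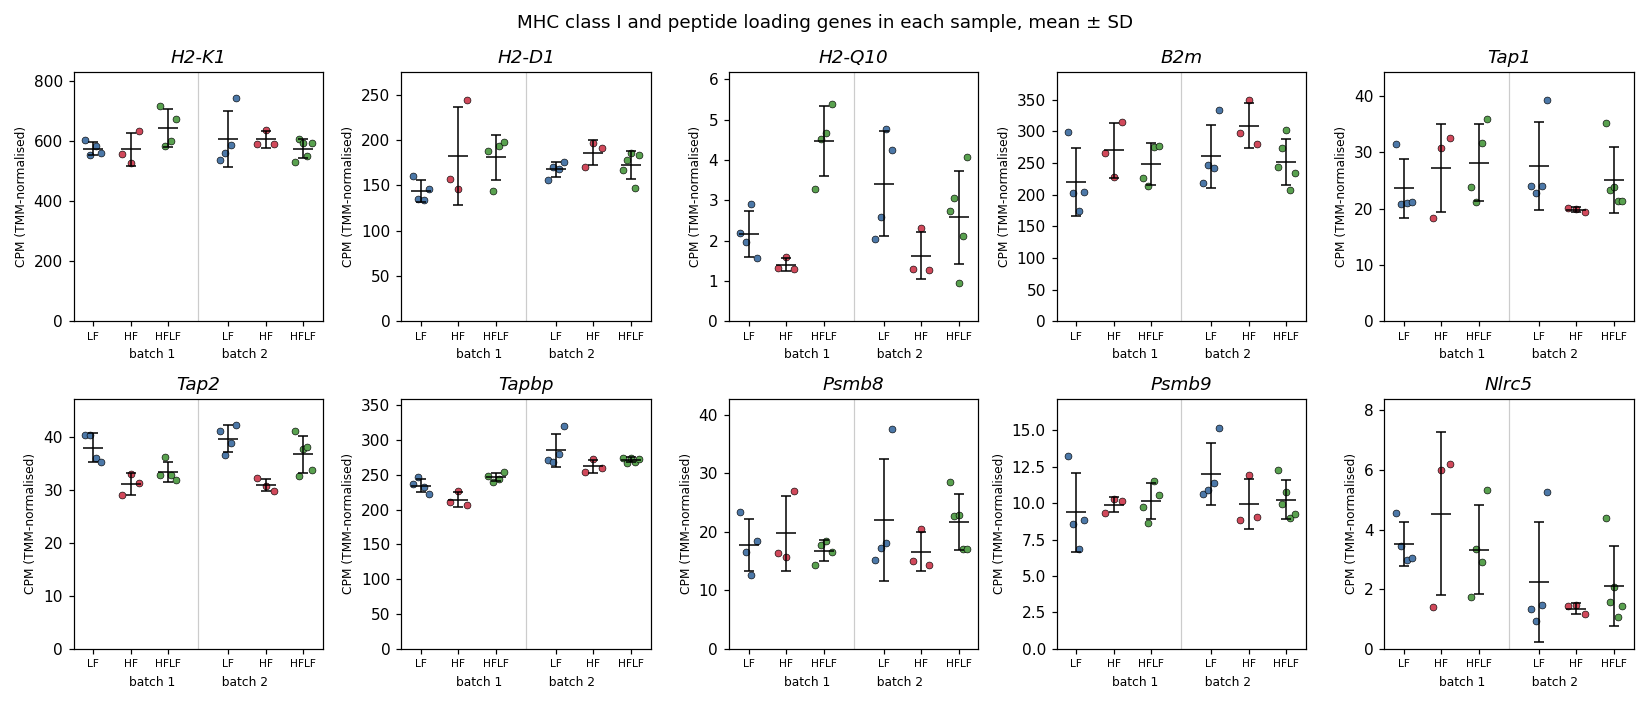
CPM of each of the 10 members in every sample (y axis from 0), by diet, with batch 1 left and batch 2 right of the grey line; points are samples, and bars are the mean ± SD. Tap2 in both batches shows all HF samples below all LF samples, while for Tap1, Psmb8, Psmb9 and Nlrc5 LF sample 4 of batch 2 stands highest in its batch.

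Some samples stood apart in several members at once. LF sample 4 of batch 2 was the highest of its batch in 7 of the 10 members and above the batch median in 10 of 10, at 3.63 times the median for Nlrc5, 2.13 for Psmb8, 1.69 for Tap1 and 1.42 for Psmb9. HFLF sample 1 of batch 2 was highest or second in 5 members, and HF sample 3 of batch 1 was highest in 4 and lowest in 2. These 3 samples held the most class II transcripts. HFLF sample 4 of batch 1, which was highest in 3 members and highest or second in 5, had a class II sum of 34.1 CPM. The summed CPM of the class II list (9 genes, among them H2-Aa, H2-Ab1 and Cd74) was 163.9 in LF sample 4 of batch 2, 110.1 in HFLF sample 1 of batch 2 and 427.4 in HF sample 3 of batch 1, against 23.5 to 62.7 in the other samples. Ciita, the class II transactivator, was at 5.50 and 6.38 CPM in LF sample 4 and HFLF sample 1 of batch 2 and at 3.15 CPM in HF sample 3 of batch 1, below the 5.77 CPM of HF sample 2 of batch 1, whose class II sum was 37.7 CPM. The summed lymphocyte markers ranged from 17.3 to 43.4 CPM over all samples, with Cd3e at 0.299, 0.516 and 0.878 CPM in those 3. Fold changes of Tap1, Psmb8, Psmb9 and Nlrc5 without these samples are given below.

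**Figure D2:**
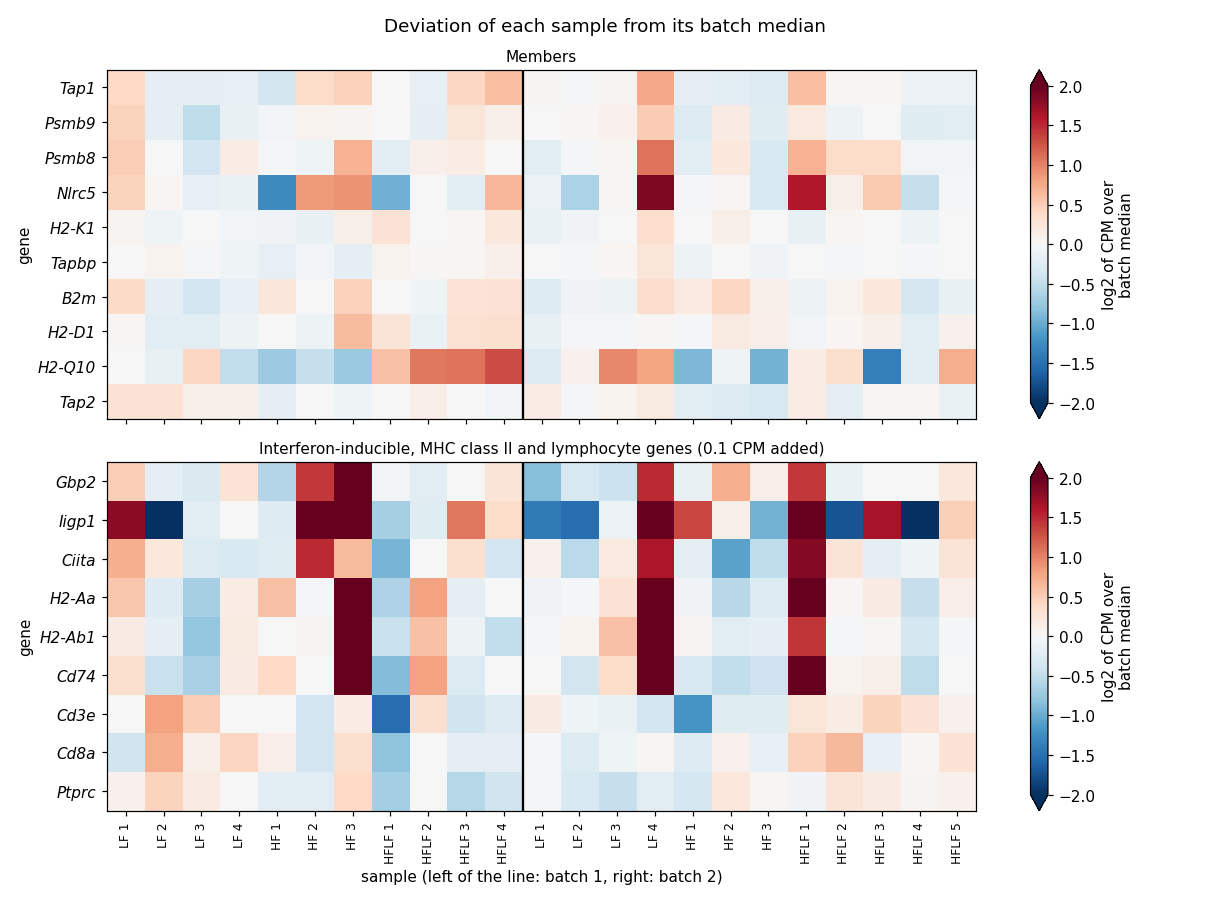
Heat maps of log2 CPM relative to the batch median, samples in columns and genes in rows, members above and interferon-inducible, class II and T cell genes with Ciita and Ptprc below (0.1 CPM added, colour capped at 2 either way). LF sample 4 and HFLF sample 1 of batch 2 show high Tap1, Psmb8 and Nlrc5 together with high H2-Aa and Cd74. The part of other cells in these values was not tested.

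Between HF and LF mice, 0 of the 10 members were called in batch 1, 1 in batch 2 and 2 over both batches, which were fitted together with batch as a covariate. Over all genes tested, 0% were called in batch 1, 7.44% in batch 2 and 18.1% over both batches, so the members' share was near that of all genes. Genes called lower made up 4.4% and 9.11% in batch 2 and both batches. In batch 1, 3198 genes (22.2%) had an unadjusted p under 0.05, of which 2 were members, and DESeq2 called 512 genes and voom 2422. Tap2 and H2-Q10 were the called members, and both fell in HF mice. In bulk tissue, fewer cells of a type and less RNA per cell cannot be told apart.

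Tap2, the second subunit of the peptide transporter, was called lower in HF mice in batch 2 and over both batches. In batch 1 it stood at 40.3, 40.3, 36.0 and 35.3 CPM in LF, 29.0, 33.0 and 31.2 in HF and 32.9, 36.1, 32.8 and 31.8 in HFLF samples. In batch 2 it stood at 41.1, 36.5, 38.9 and 42.2 CPM in LF, 32.2, 30.7 and 29.9 in HF and 41.2, 32.7, 37.8, 38.2 and 33.8 in HFLF samples. All HF samples lay below all LF samples in each batch. Genes whose HF samples all lay below all LF samples made up 6.81% of the genes tested in batch 1 and 12% in batch 2. An exact two-sided permutation test on 1 gene gave p = 0.0286 in each batch, the smallest that 3 samples against 4 allow, without adjustment over the 60 such tests made on the members, of which 6 had a p under 0.05. Tap2 had a log2 fold change of -0.30 (SE 0.09, adjusted p = 0.16) in batch 1, -0.38 (SE 0.08, adjusted p = 0.0259) in batch 2 and -0.34 (SE 0.06, adjusted p = 0.00172) over both batches. Tap2 thus fell by 22.95% in batch 2 and by 20.8% over both batches. In batch 1 DESeq2 (adjusted p = 0.0495) and voom (-0.38, adjusted p = 0.0198) called it lower. Over all genes, DESeq2 called 512 and voom 2422 there. In the fit of both batches it was called whichever of the 23 samples was left out, with adjusted p between 0.000834 and 0.00892. In batch 2 alone the call was lost without LF sample 1 (adjusted p = 0.0791), LF sample 3 (0.0742), HF sample 2 (0.139) or HF sample 3 (0.0801). Between 1082 and 1939 reads per sample lay behind these values.

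H2-Q10, a heavy chain that lacks a membrane anchor and is known as a secreted product of the liver, was scarce in the colonic epithelium, at 36 to 195 reads per sample. In batch 1 its values were 2.19, 1.98, 2.92 and 1.56 CPM in LF, 1.33, 1.59 and 1.31 in HF and 3.29, 4.53, 4.66 and 5.40 in HFLF samples. In batch 2 they were 2.03, 2.60, 4.78 and 4.26 CPM in LF, 1.31, 2.31 and 1.28 in HF and 2.73, 3.06, 0.955, 2.11 and 4.07 in HFLF samples. In each batch, 2 of the 3 HF samples lay below all LF samples and 1, HF sample 2, lay within their range. The log2 fold change between HF and LF was -0.64 (SE 0.25, adjusted p = 0.179) in batch 1, -1.11 (SE 0.40, adjusted p = 0.0799) in batch 2 and -0.91 (SE 0.30, adjusted p = 0.0296) over both batches, where H2-Q10 fell by 46.7%. That call was lost without LF sample 3 of batch 1 (0.0503), HF samples 1 (0.0607) or 3 (0.0673) of batch 1, LF samples 3 (0.0684) or 4 (0.0514) of batch 2, or HF samples 1 (0.0543) or 3 (0.0612) of batch 2. With same-numbered samples of a batch fitted as blocks, the H2-Q10 call was also lost (adjusted p = 0.0702 by edgeR). In batch 2 H2-Q10 was called lower by voom (-1.25, adjusted p = 0.0348), but not by edgeR or DESeq2. In the annotation, 12.3% of the 76-base windows of H2-Q10 also occur in other genes, most often H2-Q7, so its count is uncertain.

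The classical heavy chains H2-K1 and H2-D1, which present peptides to CD8 T cells, were abundant, and neither was called. For H2-K1, batch 1 gave 603, 552, 582 and 560.1 CPM in LF, 558, 527 and 633 in HF and 716, 583, 601 and 673 in HFLF samples. Batch 2 gave 535, 559, 586 and 742 CPM in LF, 589, 637 and 589 in HF and 531, 605, 594, 549.7 and 593 in HFLF samples. The diets overlapped in both batches, and the log2 fold change HF against LF was -0.02 (SE 0.07, adjusted p = 0.893) over both. For H2-D1, batch 1 gave 160.0, 135, 134 and 146 CPM in LF, 157, 146 and 245 in HF and 188, 144, 194 and 197 in HFLF samples. Batch 2 gave 157, 171, 168 and 176 CPM in LF, 170.4, 197 and 191 in HF and 167, 178, 186, 148 and 184 in HFLF samples. The highest value in batch 1 was that of HF sample 3, and without it the log2 fold change of H2-D1 in batch 1 went from 0.34 to 0.07 (adjusted p = 0.827). Over both batches H2-D1 differed by 0.23 (SE 0.10, adjusted p = 0.0734), and it was called without LF sample 4 of batch 2 (adjusted p = 0.0424) or HF sample 2 of batch 1 (0.0228). Windows shared with other genes made up 2.96% of H2-K1 and 5.33% of H2-D1.

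B2m, the light chain common to all class I heavy chains, stood in batch 1 at 298, 202, 174 and 204 CPM in LF, 266, 228 and 315 in HF and 226, 214, 275 and 277 in HFLF samples. In batch 2 B2m stood at 219, 247, 242 and 333 CPM in LF, 297, 349 and 280.2 in HF and 243, 274, 301, 207 and 234 in HFLF samples. The HF values overlapped the LF values in both batches, through LF sample 1 of batch 1 and LF sample 4 of batch 2. B2m had a log2 fold change of 0.29 (SE 0.17, adjusted p = 0.306) in batch 1, 0.23 (SE 0.14, adjusted p = 0.254) in batch 2 and 0.26 (SE 0.12, adjusted p = 0.0919) in both, so B2m was not called. It was called in batch 2 without LF sample 4 (log2 fold change 0.37, adjusted p = 0.0435). In both batches it was called without that sample (adjusted p = 0.0203), LF sample 1 of batch 1 (0.0325) or HF sample 2 of batch 1 (0.0444).

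Tap1, the other transporter subunit, was not called by edgeR with all samples in any comparison. In batch 1 Tap1 was at 31.5, 20.8, 21.0 and 21.3 CPM in LF, 18.4, 30.7 and 32.6 in HF and 23.8, 21.3, 31.7 and 36.0 in HFLF samples. In batch 2 it was at 24.05, 22.9, 23.99 and 39.2 CPM in LF, 20.1, 20.1 and 19.4 in HF and 35.3, 23.4, 23.9, 21.3 and 21.4 in HFLF samples. In batch 1 the diets overlapped widely, and in batch 2 all HF samples lay below all LF samples (exact permutation test, p = 0.0571). The log2 fold change was 0.19 (SE 0.22, adjusted p = 0.605) in batch 1 and -0.49 (SE 0.19, adjusted p = 0.0948) in batch 2, where it was -0.27 (adjusted p = 0.192) without LF sample 4. Tap1 was called in batch 2 by DESeq2 (adjusted p = 0.0496) and without HFLF sample 1 (0.0467). The difference between the batches was -0.68 (unadjusted p = 0.0434 by edgeR, adjusted p = 0.747).

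Tapbp, also called tapasin, which holds empty class I molecules at the transporter, passed the adjusted p over both batches, but below the fold required. In batch 1 its values were 236, 247, 233 and 223 in LF, 211, 226 and 207 in HF and 248, 240.1, 244 and 254 in HFLF samples, all in CPM. In batch 2 its values were 272, 268, 280.1 and 321 in LF, 255, 273 and 260.0 in HF and 274, 268, 274, 268 and 273 in HFLF samples. HF values were low in batch 1, with HF sample 2 inside the LF range, and in batch 2 HF sample 2 overlapped the LF samples. The log2 fold change was -0.14 (SE 0.08, adjusted p = 0.279) in batch 1, -0.14 (SE 0.06, adjusted p = 0.155) in batch 2 and -0.14 (SE 0.05, adjusted p = 0.0336) in both. The last corresponds to a fold under 1.2.

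The immunoproteasome subunits Psmb8 and Psmb9 were not called in HF against LF. For Psmb8, batch 1 held 23.4, 16.6, 12.7 and 18.4 CPM in LF, 16.4, 15.7 and 27.0 in HF and 14.3, 17.8, 18.4 and 16.6 in HFLF samples. Batch 2 held 15.2, 17.2, 18.2 and 37.5 CPM in LF, 15.0, 20.4 and 14.3 in HF and 28.5, 22.7, 22.8, 17.1 and 17.1 in HFLF samples. For Psmb9, batch 1 held 13.3, 8.57, 6.88 and 8.82 CPM in LF, 9.33, 10.3 and 10.1 in HF and 9.74, 8.63, 11.5 and 10.6 in HFLF samples. LF sample 1 of batch 1 and HF sample 3 of batch 1 were high for Psmb8, and LF sample 1 for Psmb9. In batch 2 Psmb9 stood at 10.6, 10.9, 11.4 and 15.2 CPM in LF, 8.83, 11.9 and 9.02 in HF and 12.3, 9.97, 10.7, 8.99 and 9.26 in HFLF samples. The log2 fold change in batch 2 was -0.43 (SE 0.27, adjusted p = 0.265) for Psmb8 and -0.30 (SE 0.14, adjusted p = 0.166) for Psmb9. Without LF sample 4 these became -0.05 (adjusted p = 0.865) and -0.17 (0.367). In batch 1 they were 0.14 (SE 0.21, adjusted p = 0.69) and 0.07 (SE 0.18, adjusted p = 0.833). Without HF sample 3 of batch 1, which was also high for Tap1 and Nlrc5, the batch 1 value was -0.15 for Psmb8, 0.06 for Psmb9, 0.04 for Tap1 and 0.05 for Nlrc5. Over both batches Psmb8 and Psmb9 were at -0.13 (SE 0.19, adjusted p = 0.635) and -0.12 (SE 0.13, adjusted p = 0.497).

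Nlrc5, the transactivator of class I genes, had the lowest median level per kilobase of the members, with 38 to 276 reads per sample. In batch 1 Nlrc5 was measured at 4.57, 3.45, 2.98 and 3.04 CPM in LF, 1.39, 6.02 and 6.21 in HF and 1.72, 3.35, 2.90 and 5.32 in HFLF samples. In batch 2 it was measured at 1.34, 0.931, 1.47 and 5.25 CPM in LF, 1.42, 1.47 and 1.15 in HF and 4.40, 1.56, 2.07, 1.05 and 1.42 in HFLF samples. In batch 1, HF (1.39 to 6.21 CPM) and HFLF samples (1.72 to 5.32 CPM) spanned low and high values, around the LF samples (2.98 to 4.57 CPM). In batch 2 LF sample 4 and HFLF sample 1 alone exceeded 4 CPM. Nlrc5 had a log2 fold change of 0.36 (SE 0.44, adjusted p = 0.63) in batch 1 and -0.78 (SE 0.55, adjusted p = 0.328) in batch 2. Without LF sample 4 the value in batch 2 was 0.09 (adjusted p = 0.896), so the sign rested on that sample.

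**Figure D3:**
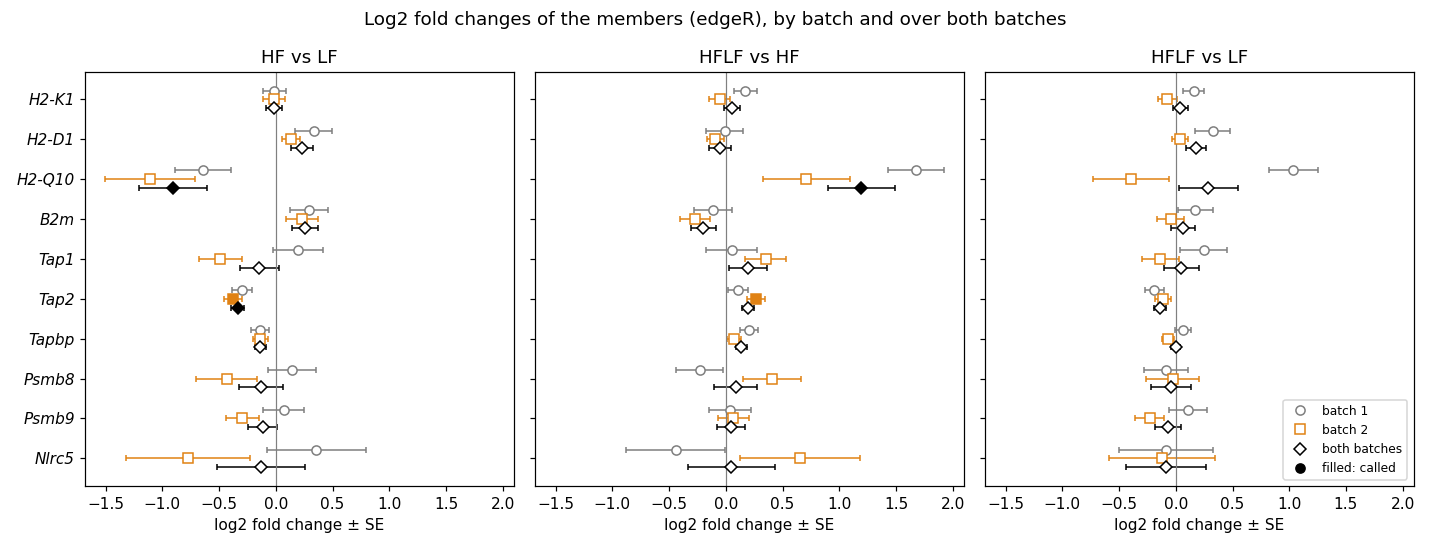
Log2 fold change ± SE (x axis) of each member (y axis) for HF against LF, HFLF against HF and HFLF against LF; circles are batch 1, squares batch 2 and diamonds both batches, and filled symbols were called. Tap2 and H2-Q10 lie below 0 for HF against LF in all fits, and no symbol is filled for HFLF against LF.

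The members did not share a direction, and for some it differed between the batches. HF minus LF was positive for 6 members in batch 1 and 2 in batch 2, and 4 of 10 had opposite signs. Some of these signs depended on the method. Under alternatives that left out no sample of either diet, batch 1 values reached -0.89 for Nlrc5, -0.17 for Tap1 and -0.06 for Psmb8. For Psmb9 they stayed at 0.04 or above. The difference between the batches for Nlrc5 was -1.13 by edgeR and 0.62 by voom, called by neither. The members' median log2 fold change was 0.11 in batch 1, -0.34 in batch 2 and -0.13 in both, beside -0.01 over all genes tested in both. Of the 14385 genes tested, 0 showed a called interaction between batch and diet for HF against LF, by edgeR or by voom, and 943 had an unadjusted p under 0.05.

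After the return to the lean diet, HFLF mice were compared with HF mice, which shares the HF samples with the comparison above. Of the 10 members, 0 were called in batch 1, 1 in batch 2 and 1 over both batches, beside 0.00693%, 14.5% and 10.3% of all genes tested, of which the genes called higher made up 8.89% in batch 2 and 5.44% over both batches. In batch 1, by edgeR, 1 gene was called, and DESeq2 called 17 and voom 3. In batch 2, 2084 genes were called, but 11 without HF sample 2, 684 without HF sample 3, 880 without HFLF sample 1 and 957 without HFLF sample 4. Tap2 rose in batch 2, by 0.27 (SE 0.08, adjusted p = 0.0305) on the log2 scale. All HFLF samples of batch 2 lay above all HF samples, as did 12.6% of genes tested (exact permutation test, p = 0.0357, unadjusted). The Tap2 call was lost without HFLF samples 1 (adjusted p = 0.0685), 3 (0.0518) or 4 (0.0646) or HF samples 2 (0.153) or 3 (0.0952). Under RLE size factors, no filter, DESeq2 and voom its value lay at 0.25 to 0.26, under the fold of 1.2. In both batches the Tap2 difference was 0.20 (SE 0.06, adjusted p = 0.0246), also under that fold.

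H2-Q10 rose in HFLF against HF over both batches, by 1.19 (SE 0.30, adjusted p = 0.0161), and was called whichever sample was left out (adjusted p between 0.0096 and 0.045). The difference was 1.68 (SE 0.25, adjusted p = 0.0914) in batch 1 and 0.71 (SE 0.39, adjusted p = 0.189) in batch 2. In batch 1 all 4 HFLF samples lay above all 3 HF samples, as did 3.75% of genes tested (exact permutation test, p = 0.0286, unadjusted). In batch 2 they overlapped, with HFLF sample 3 at 0.955 CPM the lowest of its batch. H2-Q10 was called in batch 1 without a filter (adjusted p = 0.0445), by DESeq2 (2.05e-07), by voom (0.0165) and without LF sample 3 (0.0467).

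Other members were not called for HFLF against HF. Tapbp differed by 0.21 (SE 0.08, adjusted p = 0.412) in batch 1, where the groups did not overlap, and by 0.14 (SE 0.05, adjusted p = 0.0446) over both batches, under the fold of 1.2. Tap1 in batch 2 differed by 0.35 (SE 0.18, adjusted p = 0.164) and its groups did not overlap (exact permutation test, p = 0.107). Without HFLF sample 1 that value was 0.20, and those of Nlrc5 and Psmb8 went from 0.65 and 0.40 to 0.20 and 0.29. Psmb9 went from 0.07 to -0.0049. B2m differed by -0.27 (SE 0.13, adjusted p = 0.139) in batch 2.

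Between HFLF and LF mice, edgeR called 0 of the 10 members in batch 1, in batch 2 and over both batches, beside 0%, 0.00696% and 0% of all genes tested. At an unadjusted p under 0.05 there were 763, 669 and 591 genes (5.29%, 4.65% and 4.11%), among them 2, 0 and 1 members, and DESeq2 called 6, 16 and 6 genes. In batch 1 H2-Q10 was 1.04 (SE 0.22, adjusted p = 0.792) on the log2 scale, with all HFLF samples above all LF samples, as for 0.866% of genes tested (exact permutation test, p = 0.0286, unadjusted), and DESeq2 called it (adjusted p = 0.0254). In batch 2 it was -0.40 (SE 0.34, adjusted p = 1). The difference between the batches was -1.45 (SE 0.44, unadjusted p = 0.00345 and adjusted p = 0.632 by edgeR). Tap2 over both batches was -0.14 (SE 0.05, adjusted p = 0.98), so its HFLF level lay between those of LF and HF, with no test between HFLF and LF passed. For H2-K1 and B2m the HFLF minus LF values over both batches were 0.04 (SE 0.07, adjusted p = 0.98) and 0.06 (SE 0.10, adjusted p = 0.98). Signs were opposite between the batches in 6 of 10 members.

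The endoplasmic reticulum chaperones Calr and Pdia3, which take part in loading, rose in HF mice. Of 10 loading and trimming partners, 2 rose over both batches together and 0 fell, with a median log2 fold change of 0.25, beside 18.1% of all genes called. Calr, the chaperone calreticulin, was at 394 ± 47.7 CPM in LF and 505 ± 32.6 in HF in batch 1, and at 479 ± 64.0 and 637 ± 61.1 in batch 2 (mean ± SD), and rose by 0.37 (SE 0.08, adjusted p = 0.00514). Pdia3, the thiol reductase bound to Tapbp, rose by 0.30 (SE 0.07, adjusted p = 0.00664). The chaperone Canx (0.25, adjusted p = 0.00941), the peptide-trimming Erap1 (0.25, adjusted p = 0.00854) and the peptidases Ide (0.26, 0.00522) and Tpp2 (0.14, 0.0247) passed the adjusted p below the fold of 1.2. Tapbpl (0.02), Lnpep (-0.06) and Hspa5 (0.30, adjusted p = 0.0521) were not called. In HFLF against HF, Calr and Hspa5 fell over both batches, Calr with a log2 fold change of -0.39 (SE 0.08, adjusted p = 0.00778).

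The constitutive proteasome subunits that Psmb9, Psmb10 and Psmb8 replace rose in HF mice, where the immunoproteasome subunits were not called. Of 4 genes in that list 3 rose over both batches and 0 fell (median log2 fold change 0.34), beside 18.1% of all genes called, namely Psmb5 by 0.37 (SE 0.10, adjusted p = 0.0104), Psmb6 by 0.35 (SE 0.10, adjusted p = 0.0189) and Psmb7 by 0.33 (SE 0.09, adjusted p = 0.0104). Psmb5 stood at 31.6 ± 4.98 CPM in LF and 45.0 ± 9.36 in HF in batch 1, and at 41.2 ± 3.69 and 49.2 ± 4.51 in batch 2. In neither batch alone were they called. The fourth, the activator subunit Psme3, was at 0.19 (adjusted p = 0.0165), under the fold. Among 4 interferon-inducible proteasome partners Pomp, which assembles new proteasomes, rose by 0.33 (SE 0.10, adjusted p = 0.0179), and the third inducible catalytic subunit Psmb10 (0.07, adjusted p = 0.468) and the PA28 subunits Psme1 (0.11) and Psme2 (0.16) were not called. In HFLF against HF in batch 2, Psmb5, Psmb6, Psmb7 and Pomp fell, beside 14.5% of all genes called. Without HF sample 2, the calls over all genes in that comparison went from 2084 to 11. Over both batches, 1 of the 4 genes of the constitutive list and 1 of the 4 partners fell, and in batch 1, 0 of either list.

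**Figure D4:**
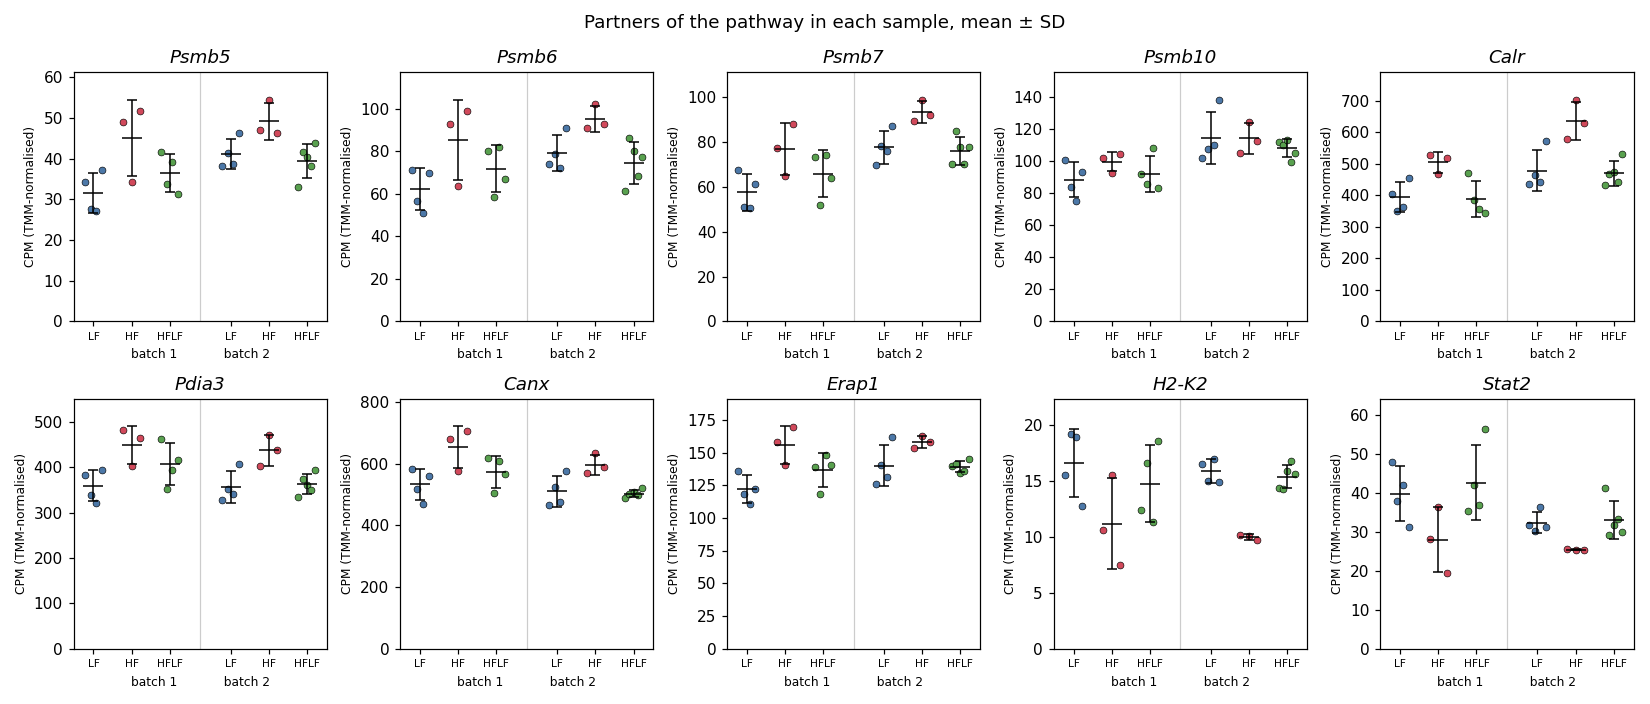
CPM in every sample (y axis from 0) of 10 genes that are not members, by diet, with batch 1 left and batch 2 right of the grey line; points are samples, and bars are the mean ± SD. Calr and Psmb5 show HF means above LF means in both batches, and H2-K2 shows the HF samples of batch 2 below the LF and HFLF samples.

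Of 28 other class I heavy chain genes, 16 were tested over both batches, and 0 rose and 2 fell in HF mice (median -0.10). Over all genes tested, 18.1% were called and 9.11% were called lower, so the share called was near that of all genes. H2-K2, a neighbour of H2-K1, fell (log2 fold change -0.63, SE 0.13, adjusted p = 0.00466) and was called in batch 2 (-0.68, SE 0.08, adjusted p = 0.00169), where it stood at 15.9 ± 1.07 CPM in LF, 10.0 ± 0.256 in HF and 15.4 ± 1.05 in HFLF samples. It rose again in HFLF against HF over both batches (0.53, SE 0.13, adjusted p = 0.0146). H2-Bl fell (log2 fold change -0.76, SE 0.25, adjusted p = 0.0298). The nonclassical H2-T23 (0.01, adjusted p = 0.934), which presents leader peptides of class I chains, and H2-M3 (0.11) were not called, nor were H2-Q5 (-0.49) and H2-T24 (-0.82). H2-Q7 was 1 of 7 listed at 0 in all 23 samples, with H2-Q6 and H2-Q9 among the others. In the annotation, 16.7% of the H2-Q7 windows and 17.4% of the H2-Q6 windows also occur in other genes. How reads matching several genes were counted is not given. Whether the counts of 0 reflect a lack of transcript was not tested.

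Few regulators and interferon targets were called in HF against LF over both batches, beside 18.1% of all genes called. Their values are log2 fold changes of that comparison unless stated. Of 23 regulators, 0 rose and 1 fell (median -0.05). Stat2, a factor of type I interferon signalling, fell (log2 fold change -0.44, SE 0.12, adjusted p = 0.0143) and rose in HFLF against HF by 0.50 (SE 0.12, adjusted p = 0.0146). Irf1 was at -0.25 (adjusted p = 0.0323, under the fold), Rfx5 at -0.10, Ciita at -0.10, Irf2 at -0.24, Irf9 at -0.27 and Socs1 at -0.40. Of 30 interferon-inducible genes tested, 0 rose and 1, the antiviral Rsad2, fell (log2 fold change -0.65, adjusted p = 0.0160; list median -0.12). The guanylate-binding Gbp2 (0.76) and the immunity-related GTPases Iigp1 (1.23) and Tgtp1 (1.08) were not called, and neither was Oas2 (-0.73), which rose in HFLF against HF (1.47, SE 0.47, adjusted p = 0.0369). In HFLF against HF over both batches, 4 of the 30 interferon-inducible genes rose and 0 fell, beside 10.3% of all genes called. For Iigp1 the HF against LF value was 2.96 in batch 1 and -2.33 in batch 2, called in neither. Of 7 class II genes tested, 0 were called, with Cd74 at 0.90, H2-Aa at 1.31, H2-Ab1 at 0.55 and H2-DMb1 at 0.55. The class II list median was 1.89 in batch 1 and -1.28 in batch 2, and in batch 1 the HF samples held Cd74 at 19.8, 15.0 and 186 CPM and H2-Aa at 8.57, 5.53 and 126 CPM, highest in HF sample 3.

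Markers of other cell types were set beside these values on the same scale. Over all genes tested, 18.1% were called and 51.3% had values below 0. Of 12 epithelial markers 0 were called (Car1 0.36, Krt20 0.27, Krt19 0.16, Muc2 -0.31). Of 11 lymphocyte markers tested 0 were called and 10 had values below 0 (Gzmb -0.59, Gzma -0.57, Cd3e -0.48, Cd7 -0.41). Of 9 stromal and endothelial markers tested 9 had values below 0 and Pdgfra fell (Myh11 -1.47, Des -1.27, Acta2 -1.24, Pdgfra -1.20), with summed levels in batch 2 of 18.6 to 64.3 CPM in LF and 9.67 to 23.9 CPM in HF samples. In batch 1 the stromal sums overlapped, at 23.3 to 41.3 CPM (median 26.8) in LF and 4.77 to 43.2 CPM (median 34.0) in HF samples. Of 9 myeloid markers tested, Cd14 rose (Csf1r -0.65, Cd68 -0.61, C1qa 0.50, C1qb -0.41), and of 3 B and plasma cell markers Derl3 rose (Igj -0.76, Cd79b -0.26). The part of these cells in the values of Tap2 and H2-Q10 was not tested. In HFLF against LF, 0 genes were called by edgeR in any of these lists.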

How the data were processed

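RNA from the colonic epithelium, isolated with PBS and EDTA, was sequenced from stranded, ribosomal RNA-depleted libraries as paired 76-base reads. The authors deposited raw read counts per gene locus, made on mm10 with cutadapt 1.2.1, STAR 2.5 and featureCounts 1.5.0-p1 (submitters' processing notes). How strand and reads matching several genes were handled is not given in the sources used here. Every value column was matched to a sample by its label (0 left over).

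The quasi-likelihood F test of edgeR 4.0.16 (R 4.3.3) was used with TMM scaling and filterByExpr, with 3 diets in 1 fit per batch, and both batches with batch as a covariate. A call needed a Benjamini-Hochberg adjusted p below 0.05, over all genes tested, and a fold change above 1.2. An exact permutation test (two-sided, log2 CPM) was added for single members. Alternatives were RLE size factors, no filter, DESeq2 1.42.0, voom of limma 3.58.1 with sample quality weights, the replicate block, only the 2 diets compared, each sample left out, and same-numbered samples of a diet summed over both batches. The fits were also run on simulated data with the same spread for all genes and no batch effect or outlying sample. That setting is simpler than these data, and no conclusion is drawn from it. Members and gene lists were chosen with earlier results of these data known. All members were named, with fixed partners (1 of them is not reported here), up to 4 further genes per list by largest HF against LF change over both batches, and the 10 genes outside the lists most alike in pattern. Genes outside this rule (Rsad2, Cd14, Epcam, Krt8, Cd4, Mzb1, Ptprc, Itgae, Cd3g) were named after their values were seen.

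The labels do not name the mouse behind each sample, and the methods give 5 mice per regimen, so 1 mouse may stand behind several of the 23 samples and enter the fit of both batches repeatedly, and p-values measure the spread between these samples. No 2 libraries of a group agreed within counting noise (smallest chi-square per degree of freedom 10.8). The 3-count floors cover counting error only. Exon lengths and shared 76-base windows came from GENCODE M21, and promoters from RefSeq (GRCm38.p6), which matched 8 of the 10 members.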

Additional observations from a re-analysis of the deposited data

Results flagged for a closer look

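Of 40 member groups with 4 or more samples, 6 held a sample whose gap to the nearest other, over the group's range, passed Dixon's critical value, where chance gives about 1 in 20. Of these, 4 were LF sample 4 of batch 2, at 39.2 CPM for Tap1, 37.5 for Psmb8, 15.2 for Psmb9 and 5.25 for Nlrc5. The others were Tap1 in LF sample 1 of batch 1, at 31.5 CPM, and Tap1 in HFLF sample 1 of batch 2, at 35.3 CPM. These members share samples and are not independent. In LF sample 4 of batch 2 the class II sum was also the highest of its batch, and the part of other cells in these values was not tested.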

How the results depend on the processing

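Of 1950 values of single members under alternatives, 1913 kept their side of the threshold, 21 lost a call, 16 gained one and 0 reversed; 81 changed sign but were called in neither setting, with sizes up to 0.89. For HF against LF, the number of members called in batch 1 was 1 by DESeq2 and 1 by voom, in batch 2 it was 2 by DESeq2, 2 by voom and 0 to 2 with 1 sample left out, and over both batches it was 1 to 4 with 1 sample left out. For HFLF against HF it was 1 in batch 1 with no filter, by DESeq2 and by voom and 0 to 1 with 1 sample left out, and in batch 2 it was 0 with RLE size factors, with no filter, by DESeq2, by voom and 0 to 1 with 1 sample left out. For HFLF against LF in batch 1 DESeq2 called 1. With the samples of 1 diet and number summed over both batches, Tap2 (-0.33, adjusted p = 0.00302) and H2-Q10 (-0.91, adjusted p = 0.0105) were called lower in HF. Over all genes, HF against LF calls in batch 1 numbered 0 by edgeR, 1 with RLE size factors, 2 with no filter, 512 by DESeq2, 2422 by voom and 1352 without HF sample 2; in batch 2 they numbered 1069, 1845 by DESeq2, 1991 by voom and 15 to 2560 with 1 sample left out. For HFLF against HF, calls in batch 1 were 1, or 2 with no filter, 17 by DESeq2, 3 by voom and 0 with only these diets. They were 2084 in batch 2, or 11 without HF sample 2 (11 to 2778 with 1 sample left out), and 501 to 2669 in both batches with 1 sample left out. For HFLF against LF they were 0, 1 and 0 in batch 1, batch 2 and both, or 6, 16 and 6 by DESeq2, 0, 0 and 3 by voom, and 4 in both with only these diets. The causes of these shifts were not tested.

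Same-numbered samples of different diets correlated at a median r of 0.0811 (range -0.395 to 0.405) in batch 1 and 0.0767 (-0.123 to 0.410) in batch 2. For differently numbered samples the medians were -0.0288 (-0.450 to 0.461) and -0.0339 (-0.339 to 0.293). Of 22 samples, 11 correlated best with a sample of their own number. The ranges overlapped and the labels name no mouse, so pairing could not be decided. The main fits did not take the numbers as pairs. With the replicate block, 1 member was called for HF against LF in both batches (H2-Q10, adjusted p = 0.0702, was not), and calls over all genes for HF against LF were 92 in batch 1 and 2080 in batch 2. For HFLF against HF in batch 1 and HFLF against LF in batch 2 the block gave 0, and for HFLF against LF in both it gave 1. H2-Q10 had 36 to 195 reads per sample and Nlrc5 38 to 276, so counting noise adds to the spread between samples. That spread was wide, as in LF samples of batch 2, at 3.42 ± 1.31 CPM for H2-Q10 and 2.25 ± 2.01 CPM for Nlrc5 (mean ± SD).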

Other observations

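Outside the gene lists, the genes whose pattern over the 23 samples was most like the mean of the members, after centring within each batch, were Cmpk2 (Pearson r = 0.809), Gm12250 (0.763), Ogfr (0.716), Ube2l6 (0.703), Ifih1 (0.666), Slc9a2 (0.639), Bst2 (0.624), 9130209A04Rik (0.623), Slfn5 (0.610) and Gucy2c (0.609). Several of these, such as the viral RNA sensor Ifih1, the ISG15-conjugating Ube2l6 and the virus-tethering Bst2, are known interferon-inducible genes. Without the 2 samples farthest from the median of the members' mean, r was 0.772 for Cmpk2, 0.641 for Ifih1, 0.505 for Bst2 and 0.407 for Slfn5. The points share libraries, and r is given as a description chosen from all genes.

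Among the members, the correlation of each with the mean of the others was 0.824 for Tap1, 0.794 for Psmb9, 0.722 for Psmb8, 0.649 for Nlrc5, 0.557 for H2-K1, 0.544 for Tapbp, 0.462 for B2m, 0.341 for H2-Q10, 0.331 for H2-D1 and 0.174 for Tap2. Tap1, Psmb9, Psmb8 and Nlrc5 had the 4 highest values, and the called members Tap2 and H2-Q10 were among the 3 lowest.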
